A study of Danio rerio with 13 samples.

Results

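The interferon response genes described here are the rows of a skin count table whose zebrafish gene symbol stood in a list of 41 names. Of these names, 40 were matched, to 42 of 32105 genes, and all 42 were among the 19141 genes kept for testing. The name helz2 matched 3 copies (helz2a, helz2b and helz2c). Of the 42, 40 are reported one by one, and all 42 enter the counts and medians. The name ddx58 was matched to no row and is not analysed here.

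Bulk RNA sequencing covered the skin of male AB zebrafish aged 3 months, in 13 samples of 3 genotypes of tert, the gene of the catalytic subunit of telomerase. There were 3 homozygous mutants (HOM, tert-/-), 5 heterozygotes (HET, tert+/-) and 5 wild types (WT, tert+/+), and the mutants came from the tert hu3430 line, whose allele carries a premature stop codon. No further treatment is named in the labels. The sources do not say which samples shared a clutch, tank or day, so p-values reflect only how these samples vary. Each label also carries a number, whose meaning is not given. Ranked by that number from lowest (1) to highest (13), HOM1 to HOM3 stand at ranks 5, 7 and 13, HET1 to HET5 at ranks 2, 3, 9, 10 and 12, and WT1 to WT5 at ranks 1, 4, 6, 8 and 11.

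Interferons are secreted proteins that warn tissue of a virus. Sensors such as the helicase ifih1 bind viral RNA and signal through mavs and the kinase tbk1 to interferon regulatory factors. The helicase dhx58 and the receptor tlr3 bind viral RNA too. Interferon that is then released acts through receptors on transcription factors that include stat2 and irf9, which switch on antiviral effectors, proteasome and peptide transporter genes for antigen presentation, and the brakes usp18 and socs1. Skin is a barrier tissue where keratinocytes and resident immune cells can both mount this response.

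Total counts ran from 15709310 to 30249877 per sample, and mitochondrial transcripts took 19.9% to 56.4% of them. Levels are counts scaled to library size (CPM) after trimmed-mean scaling, and in bulk skin fewer cells of a type and less RNA per cell cannot be told apart. tert itself had 15.7 to 37.3 CPM in HOM, 14.5 to 40.4 CPM in HET and 7.08 to 13.4 CPM in WT. A stop codon need not remove the transcript, so these levels do not check the genotypes. Keratinocyte and skin markers (21 rows) summed to 10400 to 40500 CPM across the samples. WT5 stood apart, with the lowest skin sum (10400 CPM), the highest skeletal muscle sum (50800 CPM) and a liver sum of 46200 CPM, against at most 5520 CPM elsewhere. Several of the main counts, medians and ratios, though not all, are given without it as well.

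The members differed strongly between fish, and the samples in which they were high lay next to each other in the order of the sample numbers. For 32 of 42 members, the 7 highest samples were exactly those of ranks 4 to 10, namely HOM1, HOM2, HET3, HET4, WT2, WT3 and WT4. The same was true of 364 of 19141 genes tested (1.9%), and 0 members had these samples as the 7 lowest, against 59 genes (0.308%). All 3 genotypes were on either side, with 2 of 3 HOM, 2 of 5 HET and 3 of 5 WT among the 7. This run of ranks was singled out after the values were seen, so the counts are a description and not a test. Without WT5 or any other library in turn, the count was 32 to 35 members, against 370 to 508 genes. With 1 sample fewer the rule is easier to meet for any gene, so these member counts do not show stability. On unscaled CPM the count was 26 members, against 1.43% of 19141 genes. The step was narrow for some of the 32, as for trim25, with 96.1 CPM in HOM2 and 94.3 CPM in HET2. For 15 of 42 members this split was also the widest gap between neighbouring samples in log2 CPM. The share of all tested genes with such a gap was not computed.

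**Figure D1:**
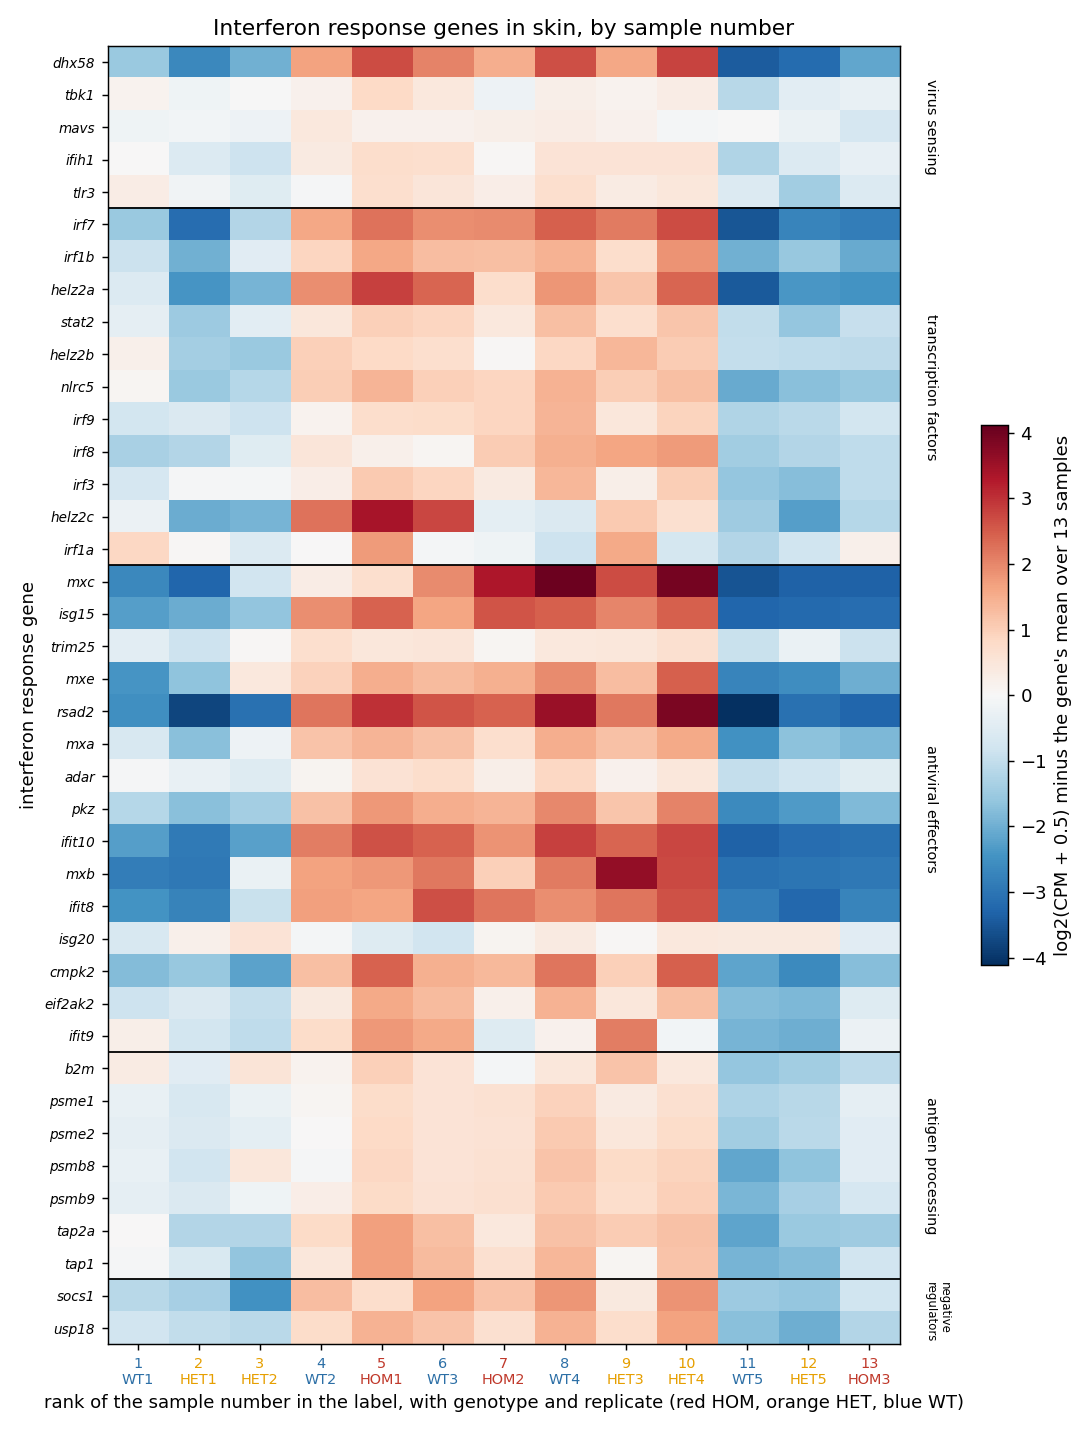
Heat map of 40 interferon response genes (rows, by role) in the 13 skin samples (columns, in the order of their sample numbers). Colour is log2(CPM + 0.5) minus the gene's mean over all samples, and most rows are red from rank 4 to rank 10 and blue at either end, apart from rows such as isg20, irf1a and mavs.

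Among the sensors, dhx58, a helicase relative of the RNA sensor family that modulates signalling, moved most. It had 266, 117 and 9.02 CPM in HOM, 6.13, 10.3, 127, 287 and 4.16 CPM in HET, and 14.0, 132, 172, 263.9 and 3.40 CPM in WT. Every genotype held samples above 100 CPM and samples at or below 14.0 CPM. ifih1, the sensor of long double-stranded RNA known as MDA5, kept the same 7 samples on top but in a narrow span, between 5.14 CPM in WT5 and 21.1 CPM in HOM1. tlr3, the endosomal receptor of double-stranded RNA, lay between 2.02 and 10.5 CPM, and here WT1 (7.94 CPM) overlapped the run of high samples.

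The adaptor and the kinase of this role varied least within it. mavs, the mitochondrial adaptor, had 34.4, 36.1 and 18.5 CPM in HOM, 28.2, 26.2, 34.3, 28.7 and 25.1 CPM in HET, and 26.7, 41.3, 34.2, 37.6 and 30.3 CPM in WT. Its highest sample was 2.24 times its lowest. tbk1, which phosphorylates interferon regulatory factors, had 56.5, 27.6 and 25.4 CPM in HOM, 28.2, 31.4, 35.5, 39.2 and 23.4 CPM in HET, and 35.7, 36.4, 43.4, 37.8 and 14.1 CPM in WT. Groups overlapped for both genes.

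irf7, the regulator that amplifies interferon production, was the transcription factor with the highest mean. It had 370, 300 and 10.4 CPM in HOM, 8.50, 33.5, 343, 507 and 11.4 CPM in HET, and 26.8, 240, 298, 430 and 6.40 CPM in WT. No sample lay between 33.5 and 240 CPM.

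The remaining transcription factors followed in differing degree. stat2 and irf9, which bind DNA as parts of 1 complex, reached 7.21 and 6.46 times their lowest sample, irf1b reached 15.8 times, nlrc5, the activator of class I antigen presentation genes, 12.1 times, and irf3 and irf8 reached 11.4 and 10.8 times. irf1a did not follow. It had 5.39, 1.04 and 1.49 CPM in HOM, 1.31, 0.668, 4.57, 0.550 and 0.488 CPM in HET, and 2.63, 1.27, 1.13, 0.464 and 0.259 CPM in WT. Only HOM1 and HET3 exceeded 2.63 CPM, and the irf1a median correlation with the other members was 0.13 (Spearman, 13 samples).

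The helz2 copies, large helicase-like transcriptional coactivators in mammals, differed from each other. helz2a spanned 3.03 CPM in WT5 to 271.1 CPM in HOM1. helz2b had 66.4, 39.0 and 17.6 CPM in HOM, 13.9, 12.6, 97.8, 78.2 and 17.8 CPM in HET, and 43.4, 73.5, 60.8, 68.3 and 18.7 CPM in WT, so WT1 lay above HOM2. helz2c had 28.9, 1.63 and 0.745 CPM in HOM, 0.178, 0.243, 5.36, 3.95 and 0.0750 CPM in HET, and 1.87, 12.7, 18.1, 1.34 and 0.518 CPM in WT. Only HOM1, WT2 and WT3, at ranks 4 to 6, exceeded 5.36 CPM for helz2c. Its lowest value rests on 2 counts, and how reads were shared among these copies is uncertain.

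Antiviral effectors had the largest spans. rsad2, the enzyme viperin that makes a chain-terminating nucleotide, had 174, 114.5 and 1.74 CPM in HOM, 1.07, 2.06, 97.4, 312.5 and 2.06 CPM in HET, and 3.20, 98.7, 129.5, 250.0 and 0.740 CPM in WT. No sample lay between 3.20 and 97.4 CPM, and the highest was 422 times the lowest (292 times without WT5). isg15, a ubiquitin-like modifier, had 216, 244.5 and 4.14 CPM in HOM, 9.22, 12.6, 163, 223 and 3.94 CPM in HET, and 7.91, 153, 124, 219 and 3.70 CPM in WT. cmpk2, a mitochondrial nucleotide kinase, reached 71.4 times its lowest sample, and pkz and eif2ak2, kinases that sense Z-form and double-stranded nucleic acid and halt translation, reached 29.3 and 15.1 times. adar, the enzyme that deaminates adenosine in RNA, stayed within 3.64 times, with 59.9, 47.1 and 28.1 CPM in HOM, 31.9, 27.1, 45.1, 54.9 and 22.2 CPM in HET, and 38.2, 43.1, 65.8, 72.4 and 19.9 CPM in WT.

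Within the mx and ifit families the samples did not rank alike. Mx proteins are dynamin-like GTPases that block viral particles, and Ifit proteins bind foreign RNA. mxc had 81.5, 503.5 and 4.47 CPM in HOM, 4.76, 28.5, 325, 766 and 4.46 CPM in HET, and 7.46, 61.6, 194, 833 and 3.81 CPM in WT. From rank 4 to rank 8, mxc thus took 61.6, 81.5, 194, 503.5 and 833 CPM, a climb within the high samples that rsad2 and isg15 lacked. mxb was highest in HET3 at 84.9 CPM, whereas mxa and mxe were highest in HET4 at 87.6 and 272.5 CPM. ifit10 and ifit8 spanned 265 and 216 times between their extremes, with lowest values that rest on 5 counts each. ifit9 departed, with HOM2, WT4 and HET4 at 0.989, 1.92 and 1.51 CPM, below WT1 at 2.02 CPM. How reads of near-identical copies in these families were divided is uncertain.

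isg20, an exonuclease that degrades viral RNA, was the member least like the rest, with a median correlation with the other members of -0.22. It had 8.88, 14.2 and 9.35 CPM in HOM, 15.2, 19.8, 13.5, 18.1 and 17.7 CPM in HET, and 8.12, 12.4, 7.48, 17.0 and 17.4 CPM in WT. HET2 was highest and WT3 lowest, although HET2 was among the low samples and WT3 among the high ones for rsad2. trim25, a ubiquitin ligase that acts on RNA sensors, kept the 7 samples on top within 3.06 times (47.7 CPM in WT5 to 146 CPM in WT2).

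**Figure D2:**
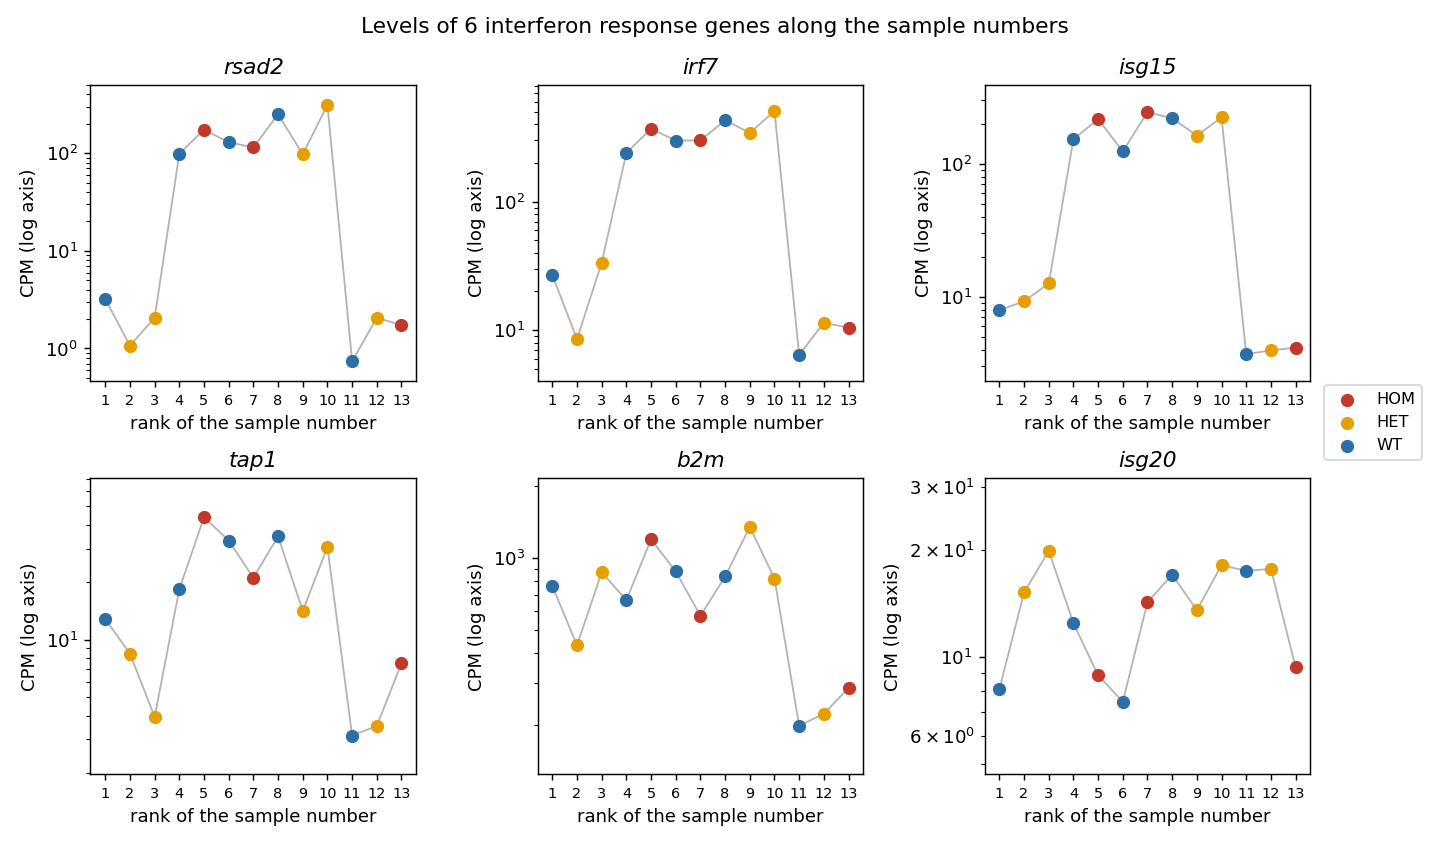
CPM (log axes) of rsad2, irf7, isg15, tap1, b2m and isg20 in each sample, in the order of the sample numbers, with points coloured by genotype. rsad2, irf7 and isg15 were all above 97 CPM from rank 4 to rank 10 and below 34 CPM elsewhere, while b2m and isg20 showed no such gap.

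The antigen processing members moved less. tap1, a subunit of the peptide transporter of the endoplasmic reticulum, had 44.0, 21.1 and 7.53 CPM in HOM, 8.44, 3.94, 14.2, 30.6 and 3.53 CPM in HET, and 12.8, 18.4, 33.1, 34.8 and 3.15 CPM in WT. The gap between WT1 (12.8 CPM) and HET3 (14.2 CPM) was small, although the 7 highest samples were again those of ranks 4 to 10. tap2a, the partner subunit, reached 16.0 times its lowest sample. psme1, an activator subunit of the proteasome, had 155, 141 and 71.8 CPM in HOM, 58.2, 76.1, 119, 146 and 41.7 CPM in HET, and 74.4, 97.4, 135, 179 and 38.0 CPM in WT. Its partner psme2 and the immunoproteasome subunits psmb8 and psmb9 reached 5.87, 10.4 and 8.07 times their lowest samples.

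b2m, the light chain of class I histocompatibility molecules, was the most abundant member and, like psmb8, broke the pattern. It had 1196, 572 and 285 CPM in HOM, 431, 870, 1349, 819 and 222 CPM in HET, and 762, 665, 878, 836 and 198 CPM in WT. HET2 and WT1 lay above HOM2 and WT2. Among the negative regulators, socs1, an inhibitor of Janus kinases, had 82.1, 110 and 27.6 CPM in HOM, 18.7, 8.38, 65.3, 179 and 16.1 CPM in HET, and 21.9, 119, 154, 175 and 17.1 CPM in WT. usp18, which removes isg15 and blocks the receptor, spanned 1.73 CPM in HET5 to 27.3 CPM in HET4.

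By role, the median ratio of the highest to the lowest sample was 52.4 for antiviral effectors (14 of 15 with at least 4 counts in the lowest sample), 18.6 for the 2 negative regulators, 11.8 for transcription factors (12 of 13), 8.07 for antigen processing and 4.11 for sensing. Without WT5 these medians were 48.2, 18.6, 10.7, 6.06 and 3.08 in the same order. The ratio of 6 members then moved by over 1.5 times, to 41.5 for helz2a (89.4 with WT5), 11.6 for irf1a (20.8), 163 for ifit10 (265), 11.1 for mxa (17.9), 9.76 for tap2a (16.0) and 2.41 for tbk1 (4.01). The 7 samples of ranks 4 to 10 were on top for 13 of 15 effectors, 2 of 2 negative regulators and 10 of 13 transcription factors. They were also on top for 5 of 7 antigen processing genes and 2 of 5 sensing genes. Over all tested genes this share was 1.9%, and the run was singled out after the values were seen. Per kilobase of gene length implied by the deposited tables, median levels ran from 0.301 CPM for helz2c to 580 CPM for b2m, with irf7 (130 CPM), isg15 (108 CPM) and psme1 (83.0 CPM) next below b2m.

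HET2, at rank 3, took a middle place for some members. It lay above the other 5 samples outside ranks 4 to 10 and below all 7 inside for 14 of 42 members, 8 of them effectors. Among 83 other genes of the pathway this held for 14, and the share over all tested genes was not computed. HET2 was singled out after the values were seen, so these counts are a description. Without that share they do not show that this place is particular to the pathway. mxe stood at 67.0 CPM in HET2, against 15.2 CPM at most in those 5, and mxb stood at 5.28 CPM, against 0.483 CPM at most. rsad2 did not share this place, with 2.06 CPM in HET2. WT5 was the lowest sample for 27 of 42 members, and HET5 for 10. The share over all tested genes was not computed for these counts either. WT5 and HET5 also had the lowest keratinocyte and skin sums (10400 and 15000 CPM).

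The members ranked the samples alike. The median Spearman correlation over the 861 pairs of members was 0.84 across the 13 samples, against 0.00 over 183179370 pairs of tested genes, and pairs ran from -0.71 to 0.99. All points share libraries and depth, so these values are a description. psme1, psme2, ifit10 and pkz were most central, each with a median of 0.92, and 40 of 42 members were at or above 0.63.

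Levels of other features were set beside this pattern. Mitochondrial shares were 19.9% to 54.3% in the samples of ranks 4 to 10 and 25.4% to 56.4% in the other 6. Keratinocyte and skin markers (21 rows, 0 at zero throughout) summed to 17500 to 40500 CPM in the samples of ranks 4 to 10 and 10400 to 32500 CPM in the other 6. The 2 highest of these sums were those of WT3 and WT4, inside the run, and the 2 lowest those of WT5 and HET5, outside it. The next ones went the other way, with HET2, outside, next highest (32500 CPM) and HET3, inside, next lowest (17500 CPM). Macrophage and dendritic cell markers (19 rows, 0 at zero throughout) summed to 266 to 681 CPM in the samples of ranks 4 to 10 and 222 to 405 CPM in the other 6. By genotype that sum was 266 to 681 CPM in HOM, 222 to 506 CPM in HET and 263 to 383 CPM in WT. Neutrophil markers (6 rows) summed to 685 to 1650 CPM and 566 to 1820 CPM along the numbers, T and NK cell markers (14 rows) to 20.3 to 67.3 CPM and 26.9 to 89.5 CPM, and B cell markers (9 rows) to 3.72 to 18.1 CPM and 8.56 to 14.4 CPM. Muscle markers (18 rows) summed to 1730 to 35900 CPM and 5290 to 50800 CPM, and liver markers (16 rows, vtg2 at zero throughout) to 676 to 1840 CPM and 888 to 46200 CPM. No summed list separated the 7 samples from the rest, and the part of cell makeup in the members' levels was not tested.

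The genotype comparisons asked whether loss of tert changed these genes in skin. No member passed in any of them, and for rsad2, irf7 and isg15 the SD within each genotype exceeded the difference between any 2 means. rsad2 averaged 96.8 ± 87.5 CPM in HOM, 83.0 ± 135 CPM in HET and 96.4 ± 103 CPM in WT (SD, n = 3, 5 and 5). irf7 averaged 227 ± 191 CPM in HOM, 181 ± 231 CPM in HET and 200 ± 181 CPM in WT. isg15 averaged 155 ± 131 CPM in HOM, 82.2 ± 103 CPM in HET and 102 ± 94.0 CPM in WT. No member had non-overlapping values in any pair of genotypes, against 1.18% of tested genes for HOM and WT, 0.564% for HET and WT, and 2.5% for HOM and HET.

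**Figure D3:**
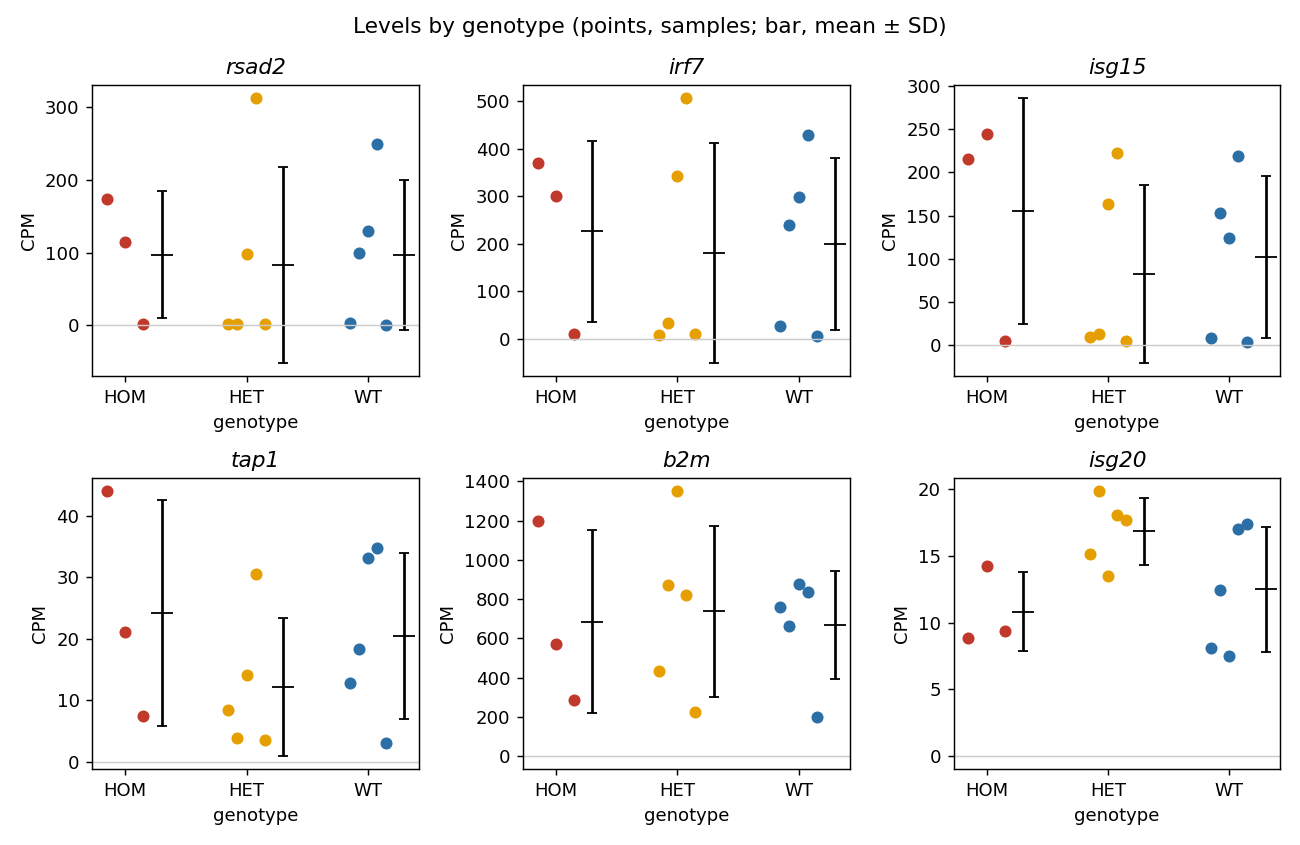
CPM of rsad2, irf7, isg15, tap1, b2m and isg20 by genotype (points, samples; black bar, mean ± SD; n = 3 HOM, 5 HET and 5 WT). Each genotype holds both high and low samples for rsad2, irf7 and isg15, and the groups overlap in every panel.

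In HOM against WT, 0 of 42 members passed edgeR's quasi-likelihood test at an adjusted p of 0.05, as did 0% of 19141 genes. At an unadjusted p under 0.05 there were 0 members and 522 genes (2.73%), and DESeq2 called 38 genes and 0 members. The median log2 fold change was 0.08 over the members and -0.05 over all genes, and 27 of 42 members lay above 0, against 43.2% of genes. The members with the smallest p were irf1a (log2 fold change 1.203, SE 0.86), mavs (-0.20, SE 0.23), isg20 (-0.21, SE 0.30), helz2b (-0.37, SE 0.73) and psme1 (0.23, SE 0.50). The precision was low for the most variable genes, since rsad2 had a log2 fold change of 0.01 with an SE of 1.90. The median over the members was -0.33 without HOM1, -0.04 without HOM2, 0.51 without HOM3, -0.11 without WT1 and -0.17 without WT5, so single libraries set its sign.

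In HET against WT, 0 members and 0% of genes passed, 0 members and 1051 genes (5.49%) had an unadjusted p under 0.05, and DESeq2 called 96 genes and 0 members. The median was -0.26 over the members and -0.04 over all genes, with 34 of 42 members below 0, against 54.4% of genes. The smallest p belonged to isg20 (0.43, SE 0.26), helz2c (-1.82, SE 1.33), mavs (-0.25, SE 0.20), adar (-0.40, SE 0.36) and tap1 (-0.75, SE 0.72). The median was -0.79 without HET4, 0.02 without WT4 and -0.52 without WT5.

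In HOM against HET, 0 members and 0% of genes passed, 0 members and 525 genes (2.74%) had an unadjusted p under 0.05, and DESeq2 called 1 gene and 0 members. The median was 0.34 over the members and -0.01 over all genes, with 35 of 42 members above 0, against 48.8% of genes. isg20 had the smallest p (log2 fold change -0.64, SE 0.31, unadjusted p = 0.0589, edgeR), followed by helz2c (2.42, SE 1.46), tap1 (0.997, SE 0.81), irf1a (0.84, SE 0.87) and psme1 (0.48, SE 0.50). The median was -0.16 without HOM1 and 0.85 without HET4. The 3 comparisons share samples, and since the members rise and fall together, their counts on either side of 0 are not separate observations.

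**Figure D4:**
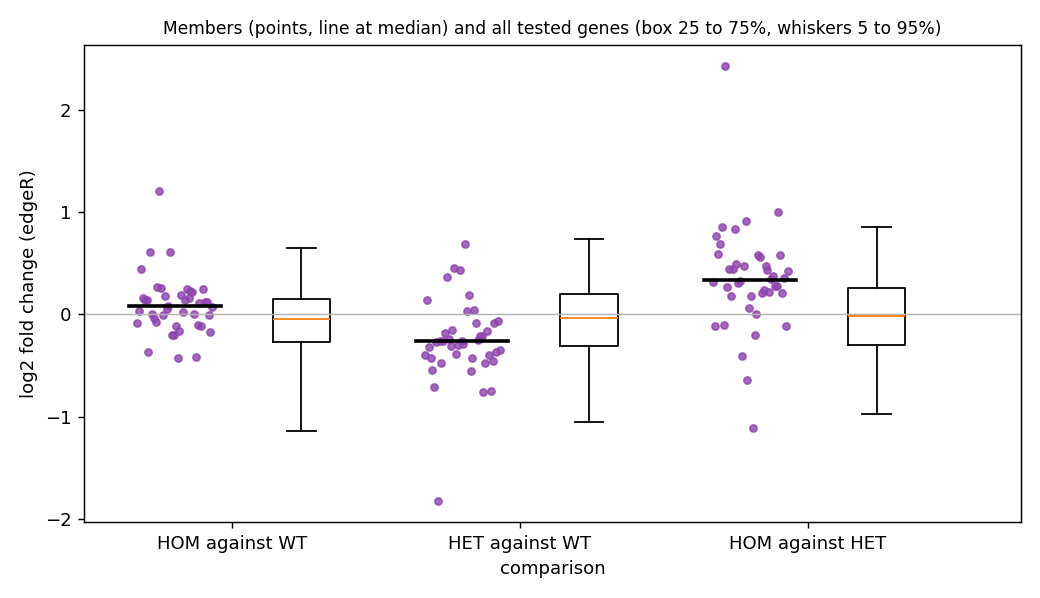
Log2 fold changes from edgeR of the 42 members (points, with a line at the median) and of all 19141 tested genes (box, 25% to 75%; whiskers, 5% to 95%) in the 3 genotype comparisons. Member medians were 0.08, -0.26 and 0.34, and 0 members passed in any comparison.

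Along the sample numbers, a straight trend of the rank of the number beside genotype found 0 of 42 members, as it did 0% of all genes. At an unadjusted p under 0.05 there were 0 members and 2508 genes (13.1%), and DESeq2 called 311 genes and 0 members. The median over the members was 0.02 per rank, with 23 of 42 above 0, and 0.11 without WT5, with 37 above 0. The smallest p among members were those of irf1a (log2 change of -0.17 per rank, SE 0.10), tbk1 (-0.06, SE 0.04), mxc (0.52, SE 0.35), b2m (-0.11, SE 0.07) and isg20 (0.03, SE 0.03). A straight line cannot follow a rise and a fall, and a fit with the rank and its square was an alternative to it. Its p is for the rank and its square together, so it does not test the curve alone, and the shape is the sign of the squared term. There, 35 of 42 members had an unadjusted p under 0.05, each with a curve that opened downward. Of all genes, 1322 (6.91%) had that shape and p. Of the tested genes 50.5% had such a curve at any p, and all 42 members did. Since the members rise and fall together, these member counts are a description and not separate observations. No member passed after adjustment over all genes (smallest adjusted p = 0.156 for mxb in edgeR), as did 0% of genes. Without genotype terms 0 members and 65 genes passed, and the smallest adjusted p of a member was 0.067 (edgeR). Without scaling factors, or with mitochondrial counts left out, 0 members and 0 genes passed. At an unadjusted p under 0.05, leaving out 1 library at a time gave 27 members (without HET5) to 38 (without WT1), and 31 without WT5. In the same order, the genes with that shape and p were 1010 of 18770, 1338 of 18689 and 999 of 18672.

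The direction of the straight trend depended on which end of the numbers was left out. As a median over the members, levels (log2, centred on each gene's mean) were -1.84 in WT5, -1.68 in HET5 and -1.06 in HOM3, the 3 samples of the highest numbers, and -0.61 in WT1 and -1.20 in HET1, the 2 of the lowest. Leaving out low samples at one end raises the line at that end, so the fits below are a description and not a test of a rise or a fall. Without the 2 lowest numbers, the median over the members was -0.19 per rank, and 2 of 42 lay above 0. There, 2 members had an unadjusted p under 0.05, both with a negative slope, against 591 genes of negative slope (3.14%), and 0 members and 0% of 18838 genes passed.

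Without the 3 highest numbers, the median over the members was 0.26 per rank, and 41 of 42 lay above 0. Past the adjusted threshold in edgeR were 93 of 19065 genes (0.488%), 79 of them with a positive slope (0.414%), and 9 members, all with a positive slope. Of these, 8 are named here, and mxc had a slope of 0.84 (log2 per rank, SE 0.08), irf8 of 0.38 (SE 0.05), irf9 of 0.24 (SE 0.03) and pkz of 0.44 (SE 0.06). psmb9 had a slope of 0.18 (SE 0.03), rsad2 of 0.92 (SE 0.14), irf7 of 0.60 (SE 0.09) and dhx58 of 0.61 (SE 0.10). At an unadjusted p under 0.05 there were 35 members of positive slope, against 1053 genes (5.52%). The 9 became 0 without HET1, HET4 or WT1, where 0, 0 and 2 of all genes passed. They became 1 without HET2 or WT4 (1 and 7 of all genes) and 4 without HET3 (28 genes). Without HOM1 they became 23 (223 genes) and without HOM2 24 (214 genes). What the number stands for is not given, and what sets the members' levels along it was not tested.

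Other genes of the pathway were taken from a list of 109 names, of which 90 rows were found and 83 tested. The 7 samples of ranks 4 to 10 were on top for 37 of these 83, against 364 of 19141 tested genes (1.9%). Among the 37 were 23 of 33 other induced genes, 8 of 19 antigen presentation genes and 3 of 11 sensing and signalling genes. The rest were 2 of 3 ligands, 1 of 10 negative regulators and 0 of 7 receptors and kinases. This run of ranks was singled out after the values were seen, so these counts are a description. Interferon transcripts themselves were scarce. ifnphi1, a type I interferon of fish, had 1.48 to 2.94 CPM in the samples of ranks 4 to 10 and 0.497 to 1.33 CPM in the other 6. The lowest ifnphi1 value rests on 6 counts. ifng1r, a type II interferon-related gene, had 1.96 CPM at most. Its split rests on values near the floor, 0.0989 CPM in HOM2 against 0.0750 CPM in HET5. The tested ligand ifnphi2, with 0.618 CPM at most, did not follow. The ligands ifnphi3, ifnphi4 and ifng1 had 0.407, 0.286 and 0.824 CPM at most. They were too low to be tested and did not follow either. cgas, the sensor of cytosolic DNA, had 62.6, 20.7 and 0.579 CPM in HOM, 0.952, 3.10, 42.8, 52.4 and 0.638 CPM in HET, and 1.93, 28.0, 46.5, 18.3 and 0.555 CPM in WT. These ligands and cgas were chosen after their values were seen.

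None of the 83 passed in a genotype comparison, and 0 of them passed along the rank. The smallest p in HOM against WT were those of mhc1zea (log2 fold change 1.06, SE 0.47), ptpn6, a phosphatase that restrains immune signalling (0.55, SE 0.26), and mhc2dab (-2.88, SE 1.65). In HET against WT they were those of ptpn6 (0.58, SE 0.23), ptpn2a (0.36, SE 0.23) and parp12b (-0.56, SE 0.37). In HOM against HET they were those of calr, a chaperone of class I molecules (0.64, SE 0.31), ptpn2a (-0.56, SE 0.27) and mxd (-1.39, SE 0.67). Along the rank they were those of samhd1, which depletes nucleotides (-0.14 per rank, SE 0.04), and of cd74b and cd74a, the invariant chains of class II molecules (-0.16 and -0.14, SE 0.05 each). With the rank and its square, 42 of 83 had an unadjusted p under 0.05, against 3052 of 19141 genes (15.9%). Of the 42, 38 had a curve that opened downward, against 1322 genes (6.91%), and 0 passed after adjustment. As for the members, these counts are a description. Without the 3 highest numbers 14 lay past the adjusted threshold, against 93 of 19065 genes (0.488%). All 14 had a positive slope, ifit16, gbp2 and socs1b among them. That count was 0 without HET1, HET2, HET4 or WT1 (0, 1, 0 and 2 of all genes) and without scaling factors (4 genes). It was 1 without WT4 (7 genes), 28 without HOM2 (214 genes) and 30 without HOM1 (223 genes). Without the 2 lowest numbers 0 of 81 passed, as did 0% of 18838 genes.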

How the data were processed

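Skin RNA of 13 fish was sequenced with an unstranded Illumina TruSeq v2 kit, so reads of antisense genes cannot be told apart. The authors deposited whole-number counts per gene, and the submitters' processing notes name bcl2fastq 1.8.4, STAR 2.4.1d, featureCounts 1.4.6-p4 and GRCz10, whose annotation was not used here. Values of the deposited RPKM table were treated as a score and served only for gene lengths. Division by the total of each value's own column gave lengths that varied between samples (median coefficient of variation 31.0%, 3854 genes). With the column totals taken in turn down the columns it was 0.0025%. In that order only 7.69% of values meet the total of their own column. 0 columns belonged to no sample.

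Symbols were matched for 26269 of 32105 genes. Counts were tested in all 13 samples with edgeR 4.0.16 (R 4.3.3; filterByExpr, TMM factors 0.769 to 1.43, robust quasi-likelihood), two-sided, with Benjamini-Hochberg adjustment over 19141 genes and a threshold of 0.05, and the code was tested on simulated data. DESeq2 1.42.0, other scalings, filters, covariates and leave-one-out fits were alternatives. Heat map levels are log2 with an offset of 0.5.

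The members, lists and rules were chosen with earlier results of these data known. Values were given in full for rsad2, isg15, irf7, tap1, b2m, the member of each role with the highest mean and the 5 members with the smallest p in each comparison. From the other pathway genes, those that passed or else the 3 with the smallest p were named. Genes beyond this rule were chosen after their values were seen. Sequences, and the values of 2 members, are not reported here.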

Additional observations from a re-analysis of the deposited data

Results flagged for a closer look

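Dixon's test was applied to the CPM of each member in the HET and in the WT samples (84 groups of 5). In 4 groups a sample lay far from the others, where chance gives about 1 in 20. The count of 4 in 84 is near that share, so the 4 are listed as a description only. irf1a in HET was highest in HET3 at 4.57 CPM, with the next sample at 1.31 CPM. ifit9 in HET was also highest in HET3, at 8.75 CPM, with the next at 1.51 CPM. mxc in WT was highest in WT4 at 833 CPM, with the next at 194 CPM. tbk1 in WT was lowest in WT5 at 14.1 CPM, with the next at 35.7 CPM.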

How the results depend on the processing

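No paired analysis was possible because replicate numbers were given in record order and pair no samples. DESeq2 called 38 genes (HOM against WT), 96 (HET against WT), 1 (HOM against HET) and 311 (along the numbers), where edgeR called 0, and no member in any of them. The trends without one end of the numbers leave out samples in which the members were low, so they are a description and not a test. Without the 3 highest numbers, 93 genes and 9 members lay past the adjusted threshold, with mxc at 0.84 per rank. There 18 of 42 members changed sign, tbk1 (0.026) and b2m (0.065) among them. Without the 2 lowest numbers 21 did. In the shortened trend without the 3 highest numbers, DESeq2 called 31 members and 766 of 19065 genes. A fit without scaling factors called 1 member and 4 genes, and a fit without genotype terms 2 members and 20 genes. Leaving out 1 library gave 0 to 24 members and 0 to 223 genes. Without scaling factors 9 members changed sign along the rank, isg20 (-0.002) among them, and the member median was -0.03. Leaving out single libraries changed the sign of up to 22 of 42 members in HOM against WT (without HOM1 or WT5), 15 in HET against WT (without WT4), 22 in HOM against HET (without HOM1) and 20 along the rank (without HET2). Of the members named for the smallest p, these were mavs in HOM against WT (-0.36 to 0.056) and, in HOM against HET, helz2c (-0.66 to 3.192) and irf1a (-0.22 to 1.836). The median over the members ran from -0.33 to 0.51 in HOM against WT, from -0.79 to 0.02 in HET against WT and from -0.16 to 0.85 in HOM against HET when libraries were left out. Without scaling factors the median of all genes moved to -0.21 (HOM against WT), to -0.29 (HET against WT) and to 0.08 (HOM against HET), where the member medians were 0.10, -0.58 and 0.59. With the rank and its square as covariates, added after seeing the data, the member medians were 0.09 (HOM against WT), -0.03 (HET against WT) and 0.23 (HOM against HET). All alternatives of the curved trend, of the shortened trend and of the counts along the numbers were also added after seeing the data. The cause of these shifts was not tested. The search for promoter motifs and the RefSeq lengths were not run. The SE of a genotype log2 fold change reached 1.90 (rsad2, HOM against WT), so the differences of the most variable members were imprecise.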
